A study of Rattus norvegicus with 10 samples.

Results

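The proteasome is the main protease of the cytosol and nucleus, and its subunit genes were examined here in the livers of Eisai hyperbilirubinemic rats (EHBR) and Sprague-Dawley (SD) rats. The genes were chosen by name: protein-coding genes whose symbol begins with Psma, Psmb, Psmc, Psmd or Psme and a digit, without the immunoproteasome genes Psmb8, Psmb9 and Psmb10. The rule found 42 of the 32883 genes in the deposited tables. Of these, 40 reached 1 TPM (a transcript level scaled by gene length and library size) in at least 5 of the 10 samples and were kept among 11083 genes in all. The other 2, Psma8 and Psmb11, had means of 0.105 and 0.00798 TPM. They encode a testis and a thymus form of a core subunit.

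The EHBR samples came from livers of 5-week-old males of a mutant line derived from SD rats that lacks Mrp2, the canalicular export pump encoded by Abcc2. The SD samples came from livers of 5-week-old SD males. Each strain had 5 samples, numbered 1 to 5 in the labels, which give no treatment, litter or breeding detail, so the missing pump and any other difference between the strains cannot be told apart. Poly(A) RNA was sequenced. The labels do not describe the animals further, so the p-values reflect only how far these samples spread.

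The 26S proteasome degrades proteins tagged with ubiquitin. Its barrel-shaped 20S core is built of outer alpha rings and inner beta rings, and the beta subunits Psmb5, Psmb6 and Psmb7 carry the proteolytic sites. The 19S regulatory particle caps the barrel: a ring of ATPases (Psmc genes) unfolds substrates, and non-ATPase subunits (Psmd genes) bind and remove ubiquitin, while other activators (Psme genes) can open the barrel in its place. Hepatocytes make and secrete much of the plasma protein of the body and rely on the proteasome to clear misfolded protein drawn back out of the endoplasmic reticulum.

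The samples held 13.8 to 17.6 M reads assigned to genes in EHBR and 15.6 to 19.6 M in SD. The kept proteasome genes were covered by 32 to 5410 reads per sample. Abcc2 had 17.2, 17.6, 12.3, 11.9 and 10.1 TPM in the EHBR samples, against 199, 224, 271, 59.98 and 66.4 TPM in the SD samples. All 8 hepatocyte markers were kept, led by Alb with 100582 to 115754 TPM in EHBR and 75563 to 103077 TPM in SD. Samples 4 and 5 of each strain differed from samples 1 to 3 across many genes, a division found in these data and named by no label. Mitochondrially encoded genes took 15.1% to 17.4% of TPM in the samples numbered 4 and 5 and 13.0% to 15.3% in those numbered 1 to 3. EHBR sample 4 also stood apart for the proteasome genes: it was the highest of the 5 EHBR samples for 30 of the 40 genes and the highest of all 10 samples for 23, while SD sample 3 was the lowest of all for 20. Results that rest on EHBR sample 4 are given with and without it.

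The 40 genes divide by role into 7 alpha and 7 beta subunits of the 20S core, 6 ATPases and 11 non-ATPase subunits of the 19S particle, 3 chaperones of 19S assembly that carry a Psmd name (Psmd5, Psmd9 and Psmd10) and 4 activators. A further 2, Psme3ip1 and Psmc3ip, share the name pattern but encode partner proteins: Psme3ip1 binds the activator Psme3, and Psmc3ip acts in meiotic recombination. The alpha subunit listed as Psma3l is a synonym of Psma3 in RefSeq. The kept genes lie on 16 chromosomes. The 40 genes together made up 0.352, 0.347, 0.356, 0.446 and 0.365% of TPM in EHBR samples 1 to 5, against 0.384, 0.361, 0.325, 0.397 and 0.403% in SD samples 1 to 5. EHBR sample 4 had the largest share, and the strains overlapped.

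Levels per length differed widely within the complexes, although each core subunit is present in the same number in the assembled particle. The core genes ran from Psma4 at a mean of 43.3 TPM over all 10 samples to Psmb4 at 338 TPM, a 7.79-fold range. The 19S genes ran from Psmd14, the deubiquitinase of the particle, at 29.99 TPM to Psmd8 at 126 TPM, a 4.21-fold range. The median core gene had 125.8 TPM and the median 19S gene 72.4 TPM. Of the 14 core genes, 7 had a mean above every 19S gene, and Psmd14 was the 1 of 17 19S genes below every core gene. Among the activators, Psme1 and Psme2, which together form the PA28 cap induced by interferon, had 284 and 116 TPM, Psme4 (PA200) 24.3 TPM and the nuclear activator Psme3 11.05 TPM. The lowest kept gene was Psmc3ip at 4.41 TPM, followed by Psmd10 at 5.93 TPM. The median spread within a strain was 0.17 on the log2 scale (SD of log2(TPM + 1)) for the 40 genes, against 0.27 for all kept genes.

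Some values carry a limit of their own. In the authors' tables the TPM of Psmb5 and Psmd10 lay 0.43 and 0.68 on the log2 scale below what their FPKM implied, and for the other 38 genes the gap was under 0.3. No source used here says whether reads were counted by strand, and 5 genes that overlap a gene on the opposite strand are therefore uncertain: Psma4, Psmb7 (with Nek6), Psmd1 (with Htr2b), Psme1 (with Emc9) and Psmc3ip (with Mlx). Psmb5, Psmc1, Psmc5, Psme3 and Psme3ip1 overlap a gene on the same strand, so their values are uncertain in either case.

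**Figure D1:**
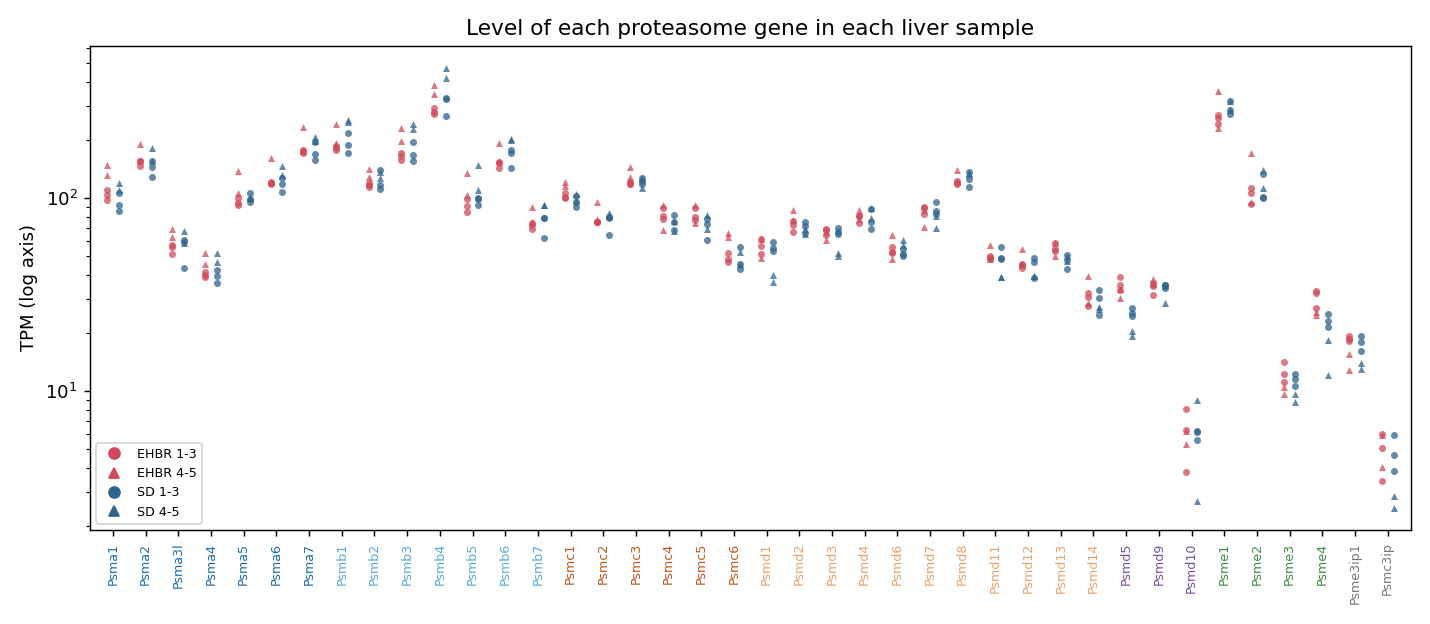
Level of each of the 40 kept proteasome genes in each sample, in TPM on a log axis, with EHBR in red left of SD in blue, circles for numbers 1 to 3 and triangles for numbers 4 and 5. Genes are ordered by role and their names coloured by it. Psmb4 is the highest gene, with a mean of 338 TPM, and Psmc3ip the lowest, with 4.41 TPM.

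Proteasome promoters are known for binding sites of the transcription factor Nfe2l1, which raises all subunits together when proteolysis is short, and of NF-Y. RefSeq promoters of the rat assembly GRCr8, 250 bases before to 50 bases after the gene start, were found for 36 of the 40 kept genes. They are printed for 4 genes that the results turn on: Psmb5 and Psmb6, catalytic subunits whose windows hold the antioxidant response core, Psme2, whose window holds an interferon response core, and Psmd5, the 1 gene that passed the test between strains. Positions are chr15:32047330-32047629 on the minus strand for Psmb5, chr10:55737638-55737937 on the plus strand for Psmb6, chr15:33052702-33053001 on the minus strand for Psme2 and chr3:38548441-38548740 on the minus strand for Psmd5. Each runs 5′ to 3′ along the gene. Capitals mark TGACNNNGC, where N is any base, in Psmb5 and Psmb6, and GAAA followed by any 2 bases and GAAA in Psme2. Neither was found in the Psmd5 window.
Psmb5: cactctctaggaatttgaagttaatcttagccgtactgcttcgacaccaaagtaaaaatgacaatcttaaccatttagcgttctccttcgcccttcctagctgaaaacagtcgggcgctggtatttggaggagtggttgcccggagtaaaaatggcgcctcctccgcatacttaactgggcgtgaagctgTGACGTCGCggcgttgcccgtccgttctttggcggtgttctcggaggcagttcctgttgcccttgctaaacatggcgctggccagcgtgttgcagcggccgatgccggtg
Psmb6: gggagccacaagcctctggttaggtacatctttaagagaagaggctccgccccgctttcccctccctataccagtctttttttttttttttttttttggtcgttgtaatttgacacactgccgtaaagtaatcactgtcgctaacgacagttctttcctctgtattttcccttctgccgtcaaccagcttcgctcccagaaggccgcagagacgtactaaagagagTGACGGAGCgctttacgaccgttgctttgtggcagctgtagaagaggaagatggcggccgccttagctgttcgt
Psme2: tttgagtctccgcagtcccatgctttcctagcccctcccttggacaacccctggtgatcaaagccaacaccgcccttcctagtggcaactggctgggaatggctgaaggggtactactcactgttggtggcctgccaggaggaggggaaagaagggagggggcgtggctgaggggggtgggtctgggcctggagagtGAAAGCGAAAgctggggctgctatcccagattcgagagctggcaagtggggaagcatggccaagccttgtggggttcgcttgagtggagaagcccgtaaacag
Psmd5: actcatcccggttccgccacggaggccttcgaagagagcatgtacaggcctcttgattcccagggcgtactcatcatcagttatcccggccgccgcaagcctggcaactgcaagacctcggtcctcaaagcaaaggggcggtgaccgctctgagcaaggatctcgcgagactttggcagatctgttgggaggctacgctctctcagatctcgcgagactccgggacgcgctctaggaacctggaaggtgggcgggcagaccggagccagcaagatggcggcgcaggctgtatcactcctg

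On either strand, TGACNNNGC was present in 8 of the 36 windows, or 22.2%, and in 12.2% of the 27457 RefSeq promoters of the same length. Of the 13 core windows 4 held it, and of the 14 19S windows 2. CCAAT, the NF-Y box, was present in 19 of 36 windows, or 52.8%, against 37.7% of all promoters, with 9 of the 13 core and 5 of the 14 19S windows. The interferon response core, GAAA with any 2 bases and GAAA, was in 4 of 36 windows (11.1%, against 3.77%), and TTCNNNGAA, the core of the gamma-activated site, in 3 of 36 (8.33%, against 8.68%). TTCNNNGAA reads the same on both strands. These matches describe the letters in the windows and no binding.

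Between strains, 1 of the 40 proteasome genes was called different. Psmd5, an assembly chaperone that holds part of the 19S ATPase ring before it joins the core, was higher in EHBR. No proteasome gene was called lower, none was lower at an unadjusted p under 0.05 and none by voom on recovered reads, which called the same count of 1 higher. The 20S alpha and beta subunits, the 19S ATPases and non-ATPases, the activators and the partner genes gave no call, and none of their genes was called by voom. The difference was tested with limma on log2(TPM + 1) over all 11083 kept genes (two-sided), and p-values were adjusted by the Benjamini-Hochberg method against a threshold of 0.05. That fit called 3.82% of kept genes higher and 1.63% lower in EHBR. The proteasome count of 1 higher and 0 lower of 40 lies near that background.

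Psmd5 had 33.2, 38.7, 35.3, 30.2 and 33.8 TPM in the EHBR samples, against 24.5, 27.03, 25.3, 19.1 and 20.4 TPM in the SD samples. Every EHBR sample lay above every SD sample, which holds for 6.45% of kept genes, while 2.02% had every EHBR sample below. Its means were 34.2 ± 3.102 and 23.3 ± 3.35 TPM (SD, n = 5 each), and its log2 difference was 0.55 (SE 0.12, 95% interval 0.29 to 0.80, adjusted p = 0.018, limma). In the build rn6 the gene lies on chromosome 3 from 13916203 to 13933658. The difference was 0.67 among the samples numbered 4 and 5 and 0.46 among those numbered 1 to 3. Leaving out EHBR sample 2 or EHBR sample 3 ended the call (adjusted p = 0.0608 and 0.0543, limma), as did keeping the samples numbered 4 and 5 alone (adjusted p = 0.0564, limma), a fit that called 4.15% of kept genes higher and 1.01% lower. The other chaperones named Psmd did not pass. Psmd9 had 34.8, 36.1, 31.5, 38.1 and 35.8 TPM in the EHBR samples, against 35.3, 35.2, 34.03, 28.5 and 34.7 TPM in the SD samples, with overlapping strains and SD sample 4 the lowest. The log2 difference of Psmd9 was 0.07 (95% interval -0.13 to 0.28), and that of Psmd10 was 0.04 (-0.51 to 0.59), the widest interval of the 40 genes.

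Psme4, which encodes the nuclear activator PA200, had 32.3, 33.1, 26.9, 24.9 and 25.8 TPM in the EHBR samples, against 21.3, 25.2, 22.98, 18.3 and 12.05 TPM in the SD samples. The lowest EHBR value, in sample 4, lay below the highest SD value, in sample 2, so the strains overlapped. Its log2 difference was 0.53 (95% interval 0.13 to 0.92, adjusted p = 0.123, limma). With a term for the division of the numbers in the fit, Psme4 was also called (adjusted p = 0.0167, limma), beside Psmd5 (adjusted p = 0.00171, limma). That fit called 13.6% of kept genes higher and 3.36% lower. Because the division was found in these data, the p-values of that fit may be too small. Psme1 had 268, 242, 259, 358 and 231 TPM in the EHBR samples, against 317, 285, 272, 285 and 317 TPM in the SD samples, with the strains overlapping and EHBR sample 4 the highest. The log2 differences of Psme1, Psme2 and Psme3 were -0.14, -0.05 and 0.12, and none passed.

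Of the 17 ATPase and non-ATPase genes of the 19S particle, Psmd13 was the 1 with an unadjusted p under 0.05. Psmd13, a non-ATPase lid subunit, had 54.2, 53.3, 58.5, 58.1 and 49.8 TPM in the EHBR samples, against 50.7, 47.8, 42.6, 47.1 and 49.8 TPM in the SD samples. The strains overlapped, and its log2 difference of 0.20 (95% interval 0.01 to 0.39) did not pass the adjustment (adjusted p = 0.215, limma). Psmd1, a scaffold of the base, had 51.2, 61.4, 55.96, 61.2 and 49.1 TPM in the EHBR samples, against 59.05, 55.2, 52.8, 36.6 and 39.8 TPM in the SD samples. SD samples 4 and 5 were the lowest of all 10 and the rest overlapped. Psmd2, the other base scaffold, had 66.8, 72.6, 75.8, 86.2 and 76.7 TPM in the EHBR samples, against 74.8, 71.4, 65.6, 65.1 and 68.5 TPM in the SD samples, with EHBR sample 4 the highest. Psmd8, the most abundant 19S gene, had 118, 119, 122, 139 and 122 TPM in the EHBR samples, against 136, 125, 114, 134 and 133 TPM in the SD samples, with full overlap between strains. The log2 differences of Psmd1, Psmd2 and Psmd8 were 0.21, 0.13 and -0.05, and over the 11 non-ATPases they ran from -0.05 to 0.21 with 9 positive (2 once samples were centred on their medians) and a median of 0.13. Without EHBR sample 4, 8 of the 11 were positive and the median was 0.08.

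The ATPases, which unfold the substrate, were not called. None had an unadjusted p under 0.05. All 6 had a positive difference, with a median of 0.15. After centring 2 of the 6 were positive, and without EHBR sample 4, 4 of the 6 with a median of 0.10. Psmc5 had 79.3, 77.1, 88.5, 92.2 and 73.9 TPM in the EHBR samples, against 73.2, 77.96, 60.6, 69.3 and 81.7 TPM in the SD samples. Psmc1 had 100.2, 101, 106, 120.3 and 116 TPM in the EHBR samples, against 102, 95.3, 89.1, 95.9 and 105 TPM in the SD samples. In both, EHBR sample 4 was the highest of all 10 and the strains overlapped. Psmc4 had 77.7, 80.8, 88.4, 92.2 and 68.1 TPM in the EHBR samples, against 81.5, 74.8, 68.0, 66.99 and 76.1 TPM in the SD samples, and EHBR sample 5 lay below 3 of the 5 SD samples. Psmc6 had 46.4, 51.8, 48.1, 66.1 and 62.7 TPM in the EHBR samples, against 42.8, 55.9, 45.2, 52.5 and 45.5 TPM in the SD samples, with EHBR samples 4 and 5 above all others. The most abundant ATPase, Psmc3, had 121, 118, 118, 145 and 128 TPM in the EHBR samples, against 122, 127, 118, 127 and 113 TPM in the SD samples, again with overlap. Their log2 differences were 0.18, 0.15, 0.14, 0.17 and 0.05 for Psmc5, Psmc1, Psmc4, Psmc6 and Psmc3. The smallest adjusted p among the 5 was 0.343 (limma).

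In the 20S core the beta and alpha subunits had differences of opposite sign, with no call in either ring and no unadjusted p under 0.05. All 7 beta genes had a negative log2 difference, with a median of -0.10. All 7 alpha genes had a positive one, with a median of 0.04, and this sign depended on the scaling: it stayed positive for 1 of the 7 once samples were centred on their medians and for 2 of the 7 without EHBR sample 4, while the beta genes gave 0 of 7 positive in both cases. Without SD sample 5, 2 of the 7 beta genes were positive and their median was -0.027. Psmb5, the chymotrypsin-like subunit, had 91.2, 84.8, 98.8, 134 and 104 TPM in the EHBR samples, against 99.1, 99.3, 91.99, 110.2 and 149 TPM in the SD samples. Psmb6, the caspase-like subunit, had 152, 143, 154, 191 and 155 TPM in the EHBR samples, against 177, 169.8, 143, 201 and 198 TPM in the SD samples. Psmb7, the trypsin-like subunit, had 68.9, 72.5, 74.3, 89.1 and 74.8 TPM in the EHBR samples, against 78.7, 78.6, 62.2, 91.6 and 91.6 TPM in the SD samples. In these 3 catalytic genes the strains overlapped, and their log2 differences of -0.10, -0.16 and -0.08 had 95% intervals of -0.43 to 0.24, -0.41 to 0.10 and -0.34 to 0.19. The most abundant alpha gene, Psma7, had 176, 171, 174, 233 and 175 TPM in the EHBR samples, against 195, 168, 158, 196 and 206 TPM in the SD samples, with EHBR sample 4 the highest of all 10. The largest positive difference of the core was that of Psma1, at 0.19 (-0.10 to 0.49), and the largest negative one that of Psmb4, at -0.19 (-0.53 to 0.16).

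**Figure D2:**
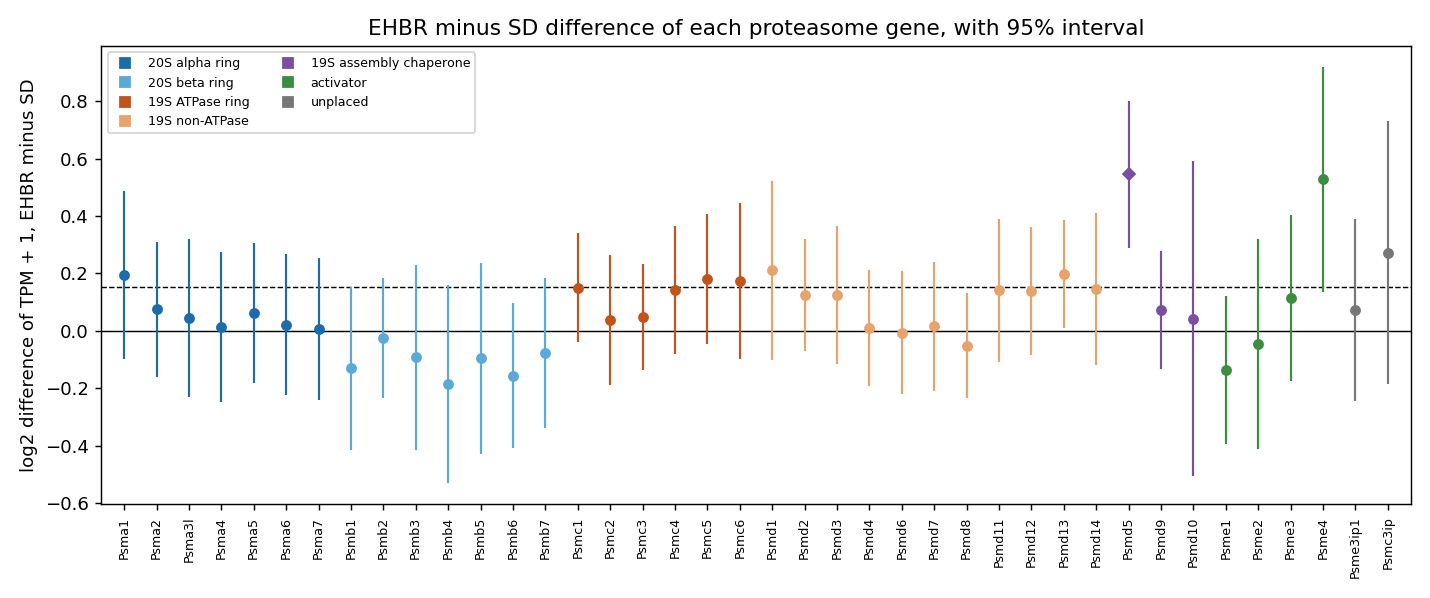
Log2 difference of TPM + 1, EHBR minus SD, for each of the 40 genes, with points coloured by role and bars for the 95% interval from limma (n = 5 each). The diamond is Psmd5 at 0.55, the 1 gene called; the solid line is 0 and the dashed line the median of all kept genes, 0.15.

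Each 95% interval gives a range for the strain difference of a single gene in TPM. The intervals are not adjusted for the number of genes and do not cover the choice of scaling. The difference of Psmb4, for example, was -0.19 in TPM and -0.35 after centring. In TPM the intervals lay within 0.5 on the log2 scale on either side of 0 for 34 of the 40 genes and within 1 for all 40, with a median half-width of 0.25. Over the 40 genes 29 differences were positive and the median was 0.06, against 0.15 for all 11083 kept genes. Without EHBR sample 4 the median was 0.01 and 21 of 40 were positive. Centring the samples on their medians put all kept genes at a median of -0.02 and the proteasome genes at -0.11, with 8 of 40 positive. The summed 20S core came to 1807, 1779.8, 1798, 2396 and 1989 TPM in EHBR samples 1 to 5, against 2010.1, 1877, 1653, 2329 and 2296 TPM in SD samples 1 to 5. The summed 19S particle came to 1196, 1211, 1255, 1409.7 and 1203 TPM in EHBR, against 1256, 1222, 1099, 1140.0 and 1178 TPM in SD. Both sums overlapped between strains. In a simulation of the EHBR against SD comparison with 11083 genes, the fit found 52% of the genes given a log2 change of 0.5 and 6% of those given 0.25. The simulated spread was that left after fitting strain and the division of the numbers. That division stays in the real strain fit, so these shares may be too high for it.

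No proteasome gene had a strain difference that differed between the samples numbered 4 and 5 and those numbered 1 to 3 by the interaction test (limma, adjusted over all kept genes), which called 0.271% of kept genes. At an unadjusted p under 0.05 there were 3 of the 40 genes, against 2252 of all 11083. They were the 19S subunits Psmd11, Psmd1 and Psmd3. Their EHBR minus SD log2 differences were 0.43, 0.51 and 0.31 among the samples numbered 4 and 5, against -0.05, 0.01 and 0.00 among those numbered 1 to 3. The smallest adjusted p of the 40 genes was 0.136, that of Psmd11 (limma).

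The samples numbered 4 and 5 held more transcript of the 20S core than those numbered 1 to 3, in both strains. All 14 core genes had a positive difference (numbers 4 and 5 minus 1 to 3, with strain in the fit), with a median of 0.25 on the log2 scale, and all 14 were positive within EHBR and within SD taken alone. The 19S genes had 11 of 17 positive and a median of 0.05, and this depended on the scaling, with 17 of 17 and a median of 0.34 once samples were centred on their medians and 16 of 17 and 0.30 with upper-quartile FPKM. Without EHBR sample 4, 8 of the 17 were positive and the core stayed at 14 of 14. Over all 40 genes 27 were positive with a median of 0.11, while the median of all kept genes was -0.22. Because the division was found in these data, it is described with no test. All 14 core genes were also positive under each of the 22 alternatives run, with medians of 0.20 to 0.54.

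For 4 of the 40 genes every sample numbered 4 or 5, of either strain, lay above every sample numbered 1 to 3, against 3.45% of all kept genes, and all 4 are core subunits. That share varied with gene length. Under 1000 bases it was 10.7% of kept genes, and 3 of the 9 proteasome genes of that length. From 3000 to 4000 bases it was 1.19% of kept genes, and 1 of the 4 proteasome genes. For 2 of the 40 genes every sample numbered 4 or 5 lay below, against 14.0% of all kept genes. In the values that follow, the samples stand in the order EHBR 4, EHBR 5, SD 4 and SD 5, and then EHBR 1 to 3 and SD 1 to 3. Psmb4, the most abundant subunit of the core, had 383, 343, 471 and 416 TPM in the samples numbered 4 and 5, against 293, 279.8, 271, 325, 328 and 266 TPM in those numbered 1 to 3. Psmb3 had 229, 197, 228 and 241 TPM in the samples numbered 4 and 5, against 171, 166, 157, 195, 167 and 155 TPM in those numbered 1 to 3. Psmb5, the chymotrypsin-like subunit, had 134, 104, 110.2 and 149 TPM in the samples numbered 4 and 5, against 91.2, 84.8, 98.8, 99.1, 99.3 and 91.99 TPM in those numbered 1 to 3. These 3 beta genes had the largest positive differences of the 40 genes, at 0.45, 0.41 and 0.38 on the log2 scale. The fourth was the alpha gene Psma4, with 51.96, 45.6, 46.7 and 51.5 TPM in the samples numbered 4 and 5, against 38.7, 39.8, 41.4, 39.2, 42.1 and 36.4 TPM in those numbered 1 to 3, a difference of 0.30.

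Other core genes differed in the same direction, with some overlap when both strains are pooled. Psma1 had 148, 131, 119 and 109.7 TPM in the samples numbered 4 and 5, against 97.1, 110.0, 104, 105, 92.1 and 85.7 TPM in those numbered 1 to 3, where SD sample 5 stayed just below EHBR sample 2. Psmb6 had 191, 155, 201 and 198 TPM in the samples numbered 4 and 5, against 152, 143, 154, 177, 169.8 and 143 TPM in those numbered 1 to 3, and Psmb7 had 89.1, 74.8, 91.6 and 91.6 TPM in the samples numbered 4 and 5, against 68.9, 72.5, 74.3, 78.7, 78.6 and 62.2 TPM in those numbered 1 to 3. For Psmb6 and Psmb7, SD samples 1 and 2 lay above EHBR sample 5. The differences of Psma1, Psmb6 and Psmb7 were 0.35, 0.25 and 0.26, and across the core they ran from 0.16 to 0.45.

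Within EHBR alone, 18 of the 40 genes had both samples numbered 4 and 5 above all 3 numbered 1 to 3 and 3 had both below, against 12.0% and 33.6% of all kept genes. Within SD alone the counts were 12 above and 9 below, against 11.2% and 51.4% of all kept genes. The core supplied 12 of the 18 in EHBR and 10 of the 12 in SD, and the beta ring 7 of 7 in EHBR and 6 of 7 in SD. Of the ATPases, 4 of 6 lay above in EHBR and 1 of 6 in SD. The 9 genes below in SD included 4 non-ATPases, Psmd1, Psmd3, Psmd7 and Psmd11, with differences of -0.53, -0.39, -0.22 and -0.38 in SD, and -0.03, -0.08, -0.15 and 0.10 in EHBR, where all 4 overlapped.

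The 2 genes below when both strains are pooled were a partner gene and an activator. Psme3ip1, whose product binds the nuclear activator Psme3, had 15.6, 12.9, 12.9 and 13.9 TPM in the samples numbered 4 and 5, against 18.6, 19.3, 18.1, 16.03, 17.99 and 19.3 TPM in those numbered 1 to 3. Psme3 itself had 10.5, 9.68, 8.78 and 9.63 TPM in the samples numbered 4 and 5, against 14.2, 12.3, 11.1, 12.3, 10.6 and 11.5 TPM in those numbered 1 to 3. In both genes no sample numbered 4 or 5 reached any numbered 1 to 3, and their differences were -0.38 and -0.28. Psme4 had the most negative difference of the 40, -0.43, with 24.9, 25.8, 18.3 and 12.05 TPM in the samples numbered 4 and 5, against 32.3, 33.1, 26.9, 21.3, 25.2 and 22.98 TPM in those numbered 1 to 3, and its EHBR samples 4 and 5 lay among or above the SD samples 1 to 3. Psme4 is also the longest of the 40 genes, and long genes in general had negative differences, as given below. Within each strain alone, samples 4 and 5 lay below samples 1 to 3 for Psme3ip1, Psme3 and Psme4. The interferon-induced activators differed in sign from these, with 0.11 for Psme1 and 0.24 for Psme2, both with overlap.

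**Figure D3:**
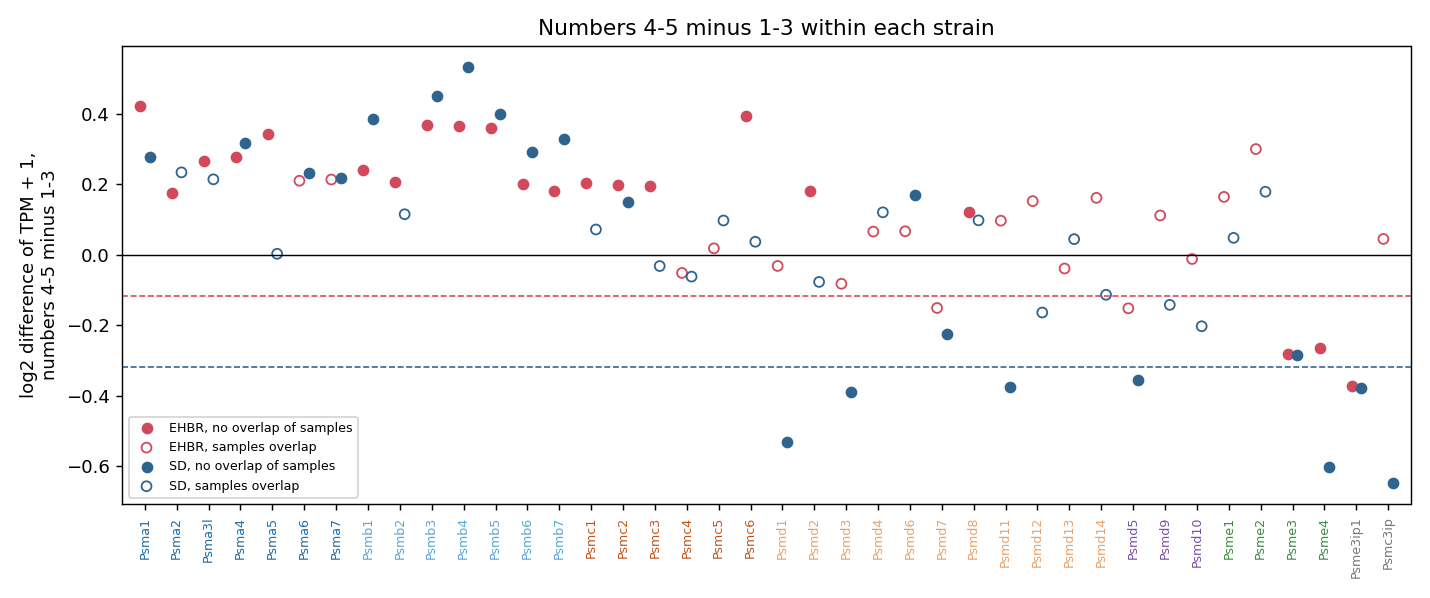
Log2 difference of TPM + 1, numbers 4 and 5 minus numbers 1 to 3, for each of the 40 genes within EHBR (red) and within SD (blue), 2 against 3 samples in each. Filled points mark genes whose samples do not overlap, dashed lines the median of all kept genes in each strain (-0.12 in EHBR and -0.32 in SD), and gene names are coloured by role. All 14 core genes, at the left, lie above 0 in both strains.

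The ratio of the summed core to the summed 19S genes does not depend on the scaling of a sample. It was not corrected for gene length, which moved with the division and differs between core and 19S genes, as given below. The ratio was 1.7, 1.65, 2.04 and 1.95 in EHBR 4, EHBR 5, SD 4 and SD 5, against 1.51, 1.47, 1.43, 1.601, 1.54 and 1.504 in EHBR 1 to 3 and SD 1 to 3. All 4 samples numbered 4 and 5 lay above all 6 numbered 1 to 3, and within each strain the order was the same. The means were 1.84 ± 0.1899 (SD, n = 4) and 1.51 ± 0.0574 (SD, n = 6). By strain, the ratio was 1.55 ± 0.117 in EHBR and 1.73 ± 0.251 in SD (SD, n = 5 each), with overlap. Within the numbers 4 and 5 both EHBR samples lay below both SD samples. The summed core itself was 2253 ± 181 TPM in the samples numbered 4 and 5 and 1821 ± 118 TPM in those numbered 1 to 3, where SD sample 1 lay above EHBR sample 5. The summed 19S genes were 1233 ± 121 TPM and 1207 ± 57.8 TPM (SD, n = 4 and n = 6), with overlap. EHBR sample 4, at 1409.7 TPM, lay above every other sample. EHBR 5, SD 4 and SD 5 had 1203, 1140.0 and 1178 TPM. These values lay within the range of the samples numbered 1 to 3 and below their mean. The higher 19S mean of the samples numbered 4 and 5 therefore rested on EHBR sample 4.

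**Figure D4:**
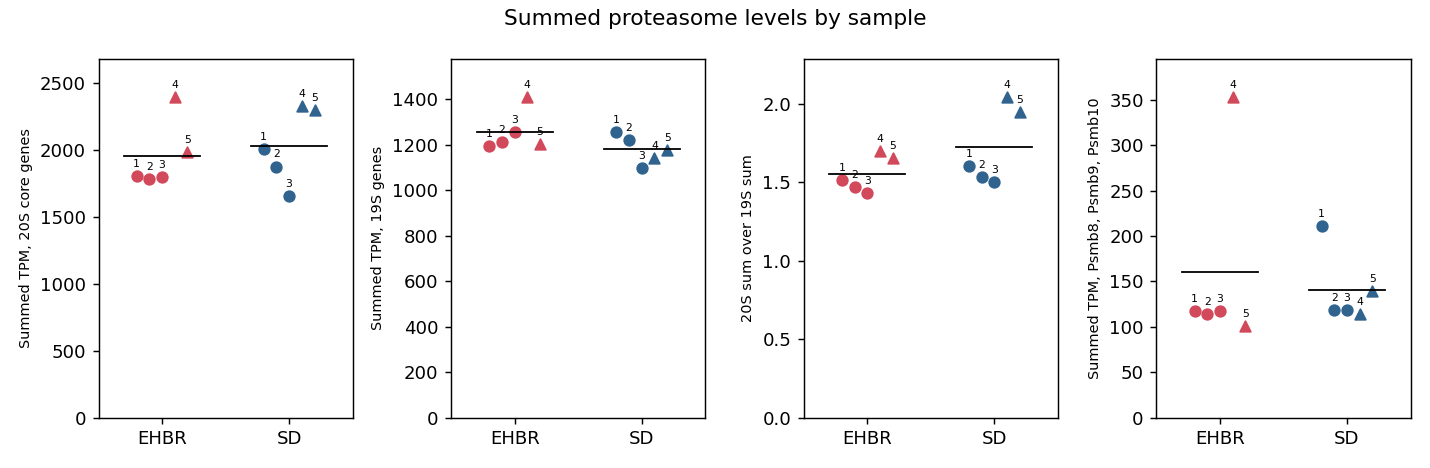
Summed TPM of the 14 core genes and of the 17 19S genes, the ratio of these sums, and the summed TPM of the immunoproteasome genes Psmb8, Psmb9 and Psmb10 in each sample, with EHBR left of SD, sample numbers beside the points and a line at each strain's mean. Triangles mark numbers 4 and 5, whose core to 19S ratio lies at 1.65 and above, and EHBR sample 4 is highest in the immunoproteasome panel at 353 TPM.

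Gene length moved with the division. Over all kept genes the median difference was 0.03 for genes under 1000 bases and -0.39 for genes of 4000 bases and more, and core genes are shorter than 19S genes, with median lengths of 965.5 and 1584 bases. Compared with the median of all kept genes in the same length class, 14 of 14 core genes lay above, with a median gap of 0.36 on the log2 scale, and 16 of 17 19S genes lay above, with a median gap of 0.16. The 2 longest core genes, Psma3l at 3559 bases and Psma4 at 3909 bases, had differences of 0.24 and 0.30 where the median of all genes of 3000 to 4000 bases was -0.30. With the length trend removed from each sample, 11 genes had all samples numbered 4 and 5 above and none had them below, against 6.70% and 4.93% of all kept genes with a length. The core median was then 0.34 and the 19S median 0.18. With the samples centred on their medians, all kept genes had a median of 0.07, and 18 proteasome genes lay above and none below, against 10.4% and 3.83% of kept genes. With upper-quartile FPKM, 15 lay above and none below, against 8.28% and 6.05%. After the centring, Psme3 and Psme3ip1 were at 0.00 and -0.09, and overlapped. Psme4, the longest of the 40 genes at 7130 bases, was at -0.15 after centring and -0.02 with the length trend removed. It overlapped in both.

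**Figure D5:**
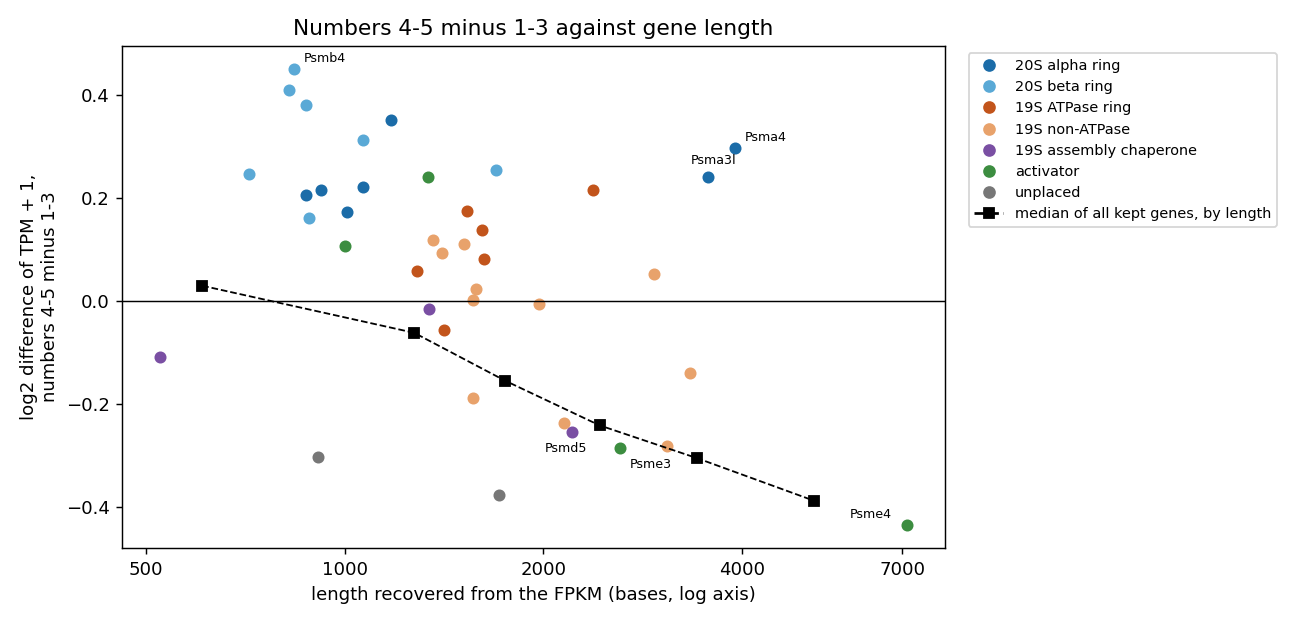
Log2 difference of TPM + 1, numbers 4 and 5 minus 1 to 3 with strain in the fit, of each of the 40 genes against its length in bases on a log axis, coloured by role, with Psme3ip1 and Psmc3ip as unplaced. Black squares joined by a dashed line give the median difference of all kept genes in 6 length classes, which falls to -0.39 for the longest genes; every core gene lies above that line.

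EHBR sample 4 bears on several of these values. Without it, 4 genes lay above and 5 below in the division of the numbers, against 3.84% and 22.3% of kept genes, and the median over the 40 genes was 0.06. Without EHBR sample 5, 11 lay above and 2 below, against 4.97% and 18.9% of kept genes. The immunoproteasome genes, which the naming rule leaves out and which interferon induces to replace Psmb5, Psmb6 and Psmb7 in the core, summed to 117, 115, 117, 353 and 101 TPM in EHBR samples 1 to 5, against 211, 119, 118, 115 and 139.8 TPM in SD samples 1 to 5. The most abundant, Psmb10, had 55.6, 55.5, 57.1, 181 and 57.97 TPM in the EHBR samples, against 90.7, 55.7, 52.7, 70.8 and 70.2 TPM in the SD samples. EHBR sample 4 was the highest for all 3, and the rest of the strains overlapped. None of the 3 was called between strains (limma, 0 at an unadjusted p under 0.05, 0 by voom), and none had its samples divided by the numbers without overlap. Psme2 showed the same high sample, with 106, 92.7, 112, 169.8 and 95.4 TPM in the EHBR samples, against 133, 101, 100.4, 112 and 139.8 TPM in the SD samples.

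Of the marker sums of other cell types, those of leukocytes and Kupffer cells were highest in EHBR sample 4. The endothelial, stellate cell, bile duct and red cell sums were not highest there, at 64.97, 35.0, 11.8 and 1325 TPM. The 7 leukocyte markers summed to 106, 119, 136, 384 and 94.4 TPM in EHBR samples 1 to 5, against 167, 172, 108, 71.2 and 134 TPM in SD samples 1 to 5. Of these, 4 of 7 were kept, and Cd74, which antigen-presenting cells carry, made up 376 TPM of the sum in EHBR sample 4, where the T cell gene Cd3e had 0.06 TPM and the pan-leukocyte gene Ptprc 3.73 TPM. The 6 Kupffer cell markers, all kept, summed to 250.2, 288, 359, 449 and 245 TPM in EHBR, against 276, 226, 277, 244 and 258 TPM in SD. The 8 interferon-induced genes summed to 167, 110.5, 154, 168 and 77.2 TPM in EHBR, against 227, 63.8, 131, 55.05 and 94.6 TPM in SD, where EHBR sample 4 was not apart from EHBR sample 1. Some of the listed markers were also called between strains. Limma called 2 of 4 endothelial, 1 of 5 red cell, 1 of 8 hepatocyte and 1 of 8 interferon-induced genes higher in EHBR and none lower, and voom gave the same counts. Of all kept genes, limma called 3.82% higher and 1.63% lower. The median log2 difference was 0.57 for the endothelial and 0.68 for the red cell markers, against 0.15 for all kept genes. The endothelial markers summed to 49.7 to 74.95 TPM in EHBR and 37.9 to 52.4 TPM in SD, and the red cell markers to 1325 to 3308 TPM in EHBR and 981 to 2047 TPM in SD. Of the 4 kept leukocyte, 6 Kupffer cell, 5 stellate cell and 2 bile duct markers none was called by limma or voom, with 0, 1, 1 and 1 at an unadjusted p under 0.05. The part of these cells in the proteasome values was not tested. In bulk samples, more cells of a type and more RNA per cell cannot be told apart.

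The other genes of the pathway gave no strain call, which does not show that they were unchanged. None of the 7 assembly factors was called (limma, 1 at an unadjusted p under 0.05). For these and the next 3 lists, voom called 0 as well. The most abundant, Pomp, which completes the core, had 47.0, 223, 106, 138 and 327 TPM in the EHBR samples, against 51.7, 119, 65.1, 140.3 and 89.04 TPM in the SD samples, with full overlap between strains. None of the 15 proteasome-associated genes was called (1 unadjusted), the most abundant being Sem1, a small 19S subunit without a Psmd name, with 89.8, 96.01, 98.7, 115 and 106 TPM in the EHBR samples, against 107, 108, 101, 143 and 149 TPM in the SD samples. None of the 8 genes that act on or with the transcription factor Nfe2l1 was called (2 unadjusted). The most abundant, the unfoldase Vcp, had 181, 194, 191, 198 and 177 TPM in the EHBR samples, against 182, 174, 168, 133 and 139 TPM in the SD samples. All 8 had a negative difference in the division of the numbers, with a median of -0.42 (4 of 8 and -0.13 after centring), and 4 of them had the samples numbered 4 and 5 below all others, against 14.0% of all kept genes. Their median length was 3855.5 bases, and with the length trend removed the median was -0.03 with 2 genes below, against 4.93%. None of the 7 genes of ubiquitin supply was called between strains (0 unadjusted).

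Other large complexes served as a comparison. Of the 8 kept genes of the CCT chaperonin, which folds actin and tubulin, 2 were higher in EHBR and none lower, against 3.82% and 1.63% of all kept genes. All 8 differences were positive, with a median of 0.31 against 0.15 for all kept genes, and 7 of the 8 were positive after centring. At an unadjusted p under 0.05, 7 of the 8 genes were higher. The share of all kept genes at that unadjusted p in the strain fit is not given here, so such counts stand without a background. Cct2 had 54.8, 56.5, 60.5, 70.2 and 51.6 TPM in the EHBR samples, against 39.6, 44.2, 40.7, 41.7 and 36.04 TPM in the SD samples, with no overlap (log2 difference 0.52, adjusted p = 0.0111, limma). Cct6a also rose, by 0.51 (adjusted p = 0.0471, limma), and voom called 1 of the 8. Of the 9 kept genes of the COP9 signalosome, which resembles the 19S lid, none was called (limma, 2 at an unadjusted p under 0.05, 0 by voom), and the most abundant, Cops6, had a difference of -0.02 (95% interval -0.24 to 0.19). The 92 kept cytosolic ribosomal protein genes, with a median length of 639 bases, had a median difference of 0.58 in the division of the numbers and 61 genes with all samples numbered 4 and 5 above (3.45% of all kept genes), against 14 core genes with a median of 0.25 and 4 above. Of kept genes under 1000 bases, 10.7% lay above. Between strains, 1 ribosomal protein gene was higher (Rpl17, 0.75) and 1 lower (Rpl12, -1.03); both values are uncertain, because this family has near-identical copies.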

How the data were processed

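Liver RNA from 5 EHBR and 5 SD males was extracted with TRIzol and made into poly(A)-selected directional libraries, per the labels' protocols. The build rn6, HISAT2 2.1.0, Trimmomatic 0.38, featureCounts 1.6.3 and FastQC 0.11.7 appear in the submitters' processing notes, without order or settings. The authors deposited 3 tables, in TPM, FPKM and upper-quartile FPKM, and TPM was used unless stated. Groups came from sample titles.

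limma 3.58.1 with the trend option in R 4.3.3 was run on log2(TPM + 1) for genes that reached 1 TPM in 5 or more samples, and on this scale fold changes of low genes are understated. Strain was the 1 factor. The interaction fit added the numbers and their product with strain. From the upper-quartile FPKM, gene lengths and whole reads were worked out for 18036 genes, 11044 of them kept (whole within 0.0002 reads). They gave the depth, the length trend (lowess, span 0.3) and a voom fit, all added after the data were seen. The strain fit, and not the recovery of lengths and reads, was run on simulated data. Promoters and motifs came from RefSeq tables. Python 3.11.15, pandas 2.3.3, numpy 2.4.6 and matplotlib 3.10.9 made the tables and figures.

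The members, lists and tests were chosen with earlier results of these data known. Sample values are given for the 10 genes with the smallest p, the 6 with the largest difference by number, the most abundant of each role and the catalytic subunits. Psma3l, Psma4, Psmd3, Psmd7, Psmd11, Psme2 and Psme3 and the markers Ptprc and Cd3e were named after their values were seen. Alternatives were other pseudocounts (0.1 and 5), units, filters and scalings, subsets by strain or number, a replicate block and leaving out each sample. Of the other cell type marker lists, the sums for stellate cells were 32.4 to 43.6 TPM in EHBR and 19.04 to 40.9 TPM in SD, and for bile duct cells 11.8 to 13.6 TPM in EHBR and 14.1 to 17.4 TPM in SD.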

Additional observations from a re-analysis of the deposited data

Results flagged for a closer look

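Of 56 groups of 5 samples examined for a value far from the others (the genes named with sample values, the immunoproteasome genes and the sums, in each strain), 10 held 1, where chance gives about 1 in 20 for a single group. The groups share samples, and the sums contain named genes, so the count of 10 cannot be set against that rate. EHBR sample 4 accounts for 8 of the 10. In that sample the highest value stood apart from the other EHBR samples for Psma7 (232.5 TPM), Psmb6 (191 TPM), Psmd8 (139 TPM), Psmb8 (55.0 TPM), Psmb9 (117 TPM), Psmb10 (181 TPM), the summed 19S genes (1410 TPM) and the share of TPM in the 40 proteasome genes (0.446%). In SD, sample 4 stood apart as the lowest for Psmd9 (28.5 TPM) and sample 1 as the highest for Psmb9 (83.9 TPM). The leukocyte, Kupffer cell and interferon-induced sums given above for the same samples were measured beside these values, and their part in them was not tested.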

How the results depend on the processing

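The strain call of Psmd5 held in 22 of 25 alternatives, with a log2 difference of 0.38 to 0.67. Its adjusted p ran from 0.00171, with the term for the numbers, to 0.0608 (limma), and the exceptions are given above. Psme4 was called in 2 of 25, with a term for the numbers and with the replicate number as a block (adjusted p of 0.0167 to 0.367, limma). The count of higher proteasome genes was 2 with the replicate block, where all kept genes gave 639 higher and 222 lower, 2 with the term for the numbers, and 0 among the samples numbered 4 and 5 alone. It ranged from 0 (without EHBR sample 2 or 3) to 1 when each sample was left out in turn, and the count of lower genes from 0 to 0. The replicate numbers gave no sign of pairing the samples: deviations of same-numbered samples correlated across genes at 0.07 to 0.29, with number 3 lowest. Differently numbered samples of the 2 strains within the same division correlated at 0.05 (EHBR 3 with SD 1) to 0.40 (EHBR 4 with SD 5).

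The median strain difference changed sign with the scaling, to -0.028 with FPKM, -0.10 with upper-quartile FPKM, -0.028 with samples quantile-normalized, -0.11 after centring, -0.043 with the length trend removed, also with the term for the numbers (-0.043), and -0.028 with voom, and it ranged from 0.01 to 0.08 over samples left out.

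Genes with the samples numbered 4 and 5 above all others numbered 15 with upper-quartile FPKM (8.28% of kept genes), 18 after centring (10.4%), 18 in EHBR only (12.0%), 12 in SD only (11.2%) and 11 with the length trend removed (6.70%). Over samples left out they numbered 4 to 11, where all 11083 kept genes gave 402 to 551. Those below numbered 1 with FPKM, where all 11083 kept genes gave 1273, and 0 when quantile-normalized, where all gave 671. With voom there was 1, where the 11044 fitted genes gave 1272. There were 0 below with upper-quartile FPKM (6.05% of kept genes), 0 after centring (3.83%), 9 in SD only (51.4%) and 0 with the length trend removed (4.93%). Over samples left out 2 to 5 lay below, where all kept genes gave 1628 to 2469. The median was 0.36 with upper-quartile FPKM and 0.39 after centring, and 0.06 to 0.14 over samples left out. The cause was not tested. Calls over all kept genes, 423 higher and 181 lower, were 264 and 122 with no filter, 190 and 241 with upper-quartile FPKM, 193 and 266 after centring, 246 and 291 with the length trend removed, and 1506 and 372 with the term for the numbers. Of 525 alternative values of single genes, 490 moved by less than the replicate spread or kept their call, 30 moved further, 2 gained and 3 lost a call, and 0 changed the sign of a call. The tests rest on 5 samples a strain, and 32 reads stand behind the lowest value of a kept proteasome gene.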
